A study of Mus musculus with 4 samples.

Results

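The cytosolic ribosomal protein genes encode the protein part of the ribosome that translates nuclear messages. They were chosen by annotation: protein-coding mouse genes whose symbol begins with Rpl or Rps and a number, together with Rplp0, Rplp1, Rplp2 and Rpsa, without the Rps6k kinases, Rps19bp1 and pseudogenes. Of 411 symbols that begin this way, 101 were protein coding, and 88 genes were left after 10 Rps6k genes, Rps19bp1 and 2 genes with a pseudogene symbol were taken out. The 88 genes are set against 15935 gene identifiers listed in any library. They comprise 77 core genes, 46 of the large subunit with its P stalk and 31 of the small subunit, and 11 paralogs or retrocopies. Of the 88, 82 were listed in all 4 libraries, 2 in some (Rpl37rt and Rpl39l) and 4 in none (Rpl10l, Rpl32l, Rpl3l and Rps27rt).

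The study sequenced RNA from bone marrow-derived macrophages, phagocytes grown from marrow of adult C57BL/6 mice with M-CSF conditioned medium over 5 days. KO LPS and KO NT cells came from ezh2 f/f lysmcre mice, in which Cre made from the lysozyme M promoter deletes the floxed Ezh2 gene, so deletion can only follow as cells of the myeloid lineage switch that promoter on. WT LPS and WT NT cells came from wild-type mice of the same strain and had no floxed allele and no Cre in their labels, so the KO and WT groups differ in Cre as well as in Ezh2. LPS cells were given lipopolysaccharide, a bacterial cell wall component, for 2 h, and NT cells were left untreated. With 1 library in each of the 4 groups there were no replicates, so no test was run, no p-value is given and every difference is one between libraries. The labels do not say how many mice a library came from or whether the LPS and NT cells of a genotype were 1 culture.

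Ribosomal proteins are made in step with each other, because a ribosome takes them in fixed proportion, and a protein without a place in a subunit is degraded. Their messages start with a run of pyrimidines, the terminal oligopyrimidine (TOP) tract, through which mTOR and Larp1 set how much of the message is translated. The genes are therefore known for control at translation as well as at the level of RNA, and signals from Toll-like receptors, which sense LPS, reach mTOR in macrophages. Levels are given in FPKM, fragments per kilobase of gene at a common library size, and a fold is log2 of FPKM + 1 over FPKM + 1, which understates the change of low genes. An interval is the exact 95% Clopper-Pearson interval of a ratio of FPKM, computed from the expected counts. It covers counting error only and no variation between cultures. PCR copies of 1 molecule are counted as separate reads, which the interval does not allow for.

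The total expected count lay between 5237782 and 5678451 per library. Ezh2 itself had 2.06 FPKM in KO NT cells, against 2.84 FPKM in WT NT cells, a ratio of 0.725 (interval 0.442 to 1.18). With LPS it had 1.29 FPKM in KO cells, against 2.52 FPKM in WT cells, a ratio of 0.512 (interval 0.275 to 0.919). The gene was thus not absent in the KO libraries, with 18 counts in KO LPS and 31 in KO NT cells. It was lower than in WT cells in both states, but without LPS by no more than counting error. The values do not show which exons the reads cover. All 15 macrophage markers found in the annotation were listed in each library, with a summed level of 7542 and 8722 FPKM in KO LPS and KO NT cells, against 7718 and 8863 FPKM in WT LPS and WT NT cells. Fibroblast markers summed to 4.89 and 4.99 FPKM in KO LPS and KO NT cells, against 9.17 and 8.44 FPKM in WT LPS and WT NT cells. Lymphocyte and erythroid markers summed to at most 2.66 FPKM, and Cd3e, Cd3g, Hbb-bs and Hbb-bt were listed in no library.

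The start of these genes shows the sequence that they are known to share. The stretches printed here run from 15 bases before to 15 bases after the RefSeq annotated start on GRCm38.p6, 5′ to 3′ on the gene's strand, and capitals mark a run of a C and at least 4 pyrimidines that begins within 10 bases of that start. Rpl28 (chr7:4792950-4792979, plus strand), Rps9 (chr7:3704026-3704055, plus strand), Rplp2 (chr7:141447636-141447665, plus strand), Rps6 (chr4:86857353-86857382, minus strand) and Rpl38 (chr11:114668565-114668594, plus strand) show the tract. Rpl14 (chr9:120571502-120571531, plus strand) has a longer one that begins further upstream. Rpl24 (chr16:55966260-55966289, plus strand) and Rpl22 (chr4:152325711-152325740, plus strand) have none in this window, and they are printed because their LPS folds lie at the ends of the family. Rpl22l1 (chr3:28805493-28805522, plus strand) and Rps27l (chr9:66946071-66946100, plus strand) are paralogs printed because they lay at the ends of the family, among members of at least 50 counts, for KO NT over WT NT. Rpl22 and Rps27l have 2 annotated starts each. Only the first listed start of each is printed, so a run at the other start would not be seen.
Rpl28: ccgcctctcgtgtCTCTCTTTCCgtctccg
Rps9: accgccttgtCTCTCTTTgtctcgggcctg
Rplp2: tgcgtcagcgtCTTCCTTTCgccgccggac
Rps6: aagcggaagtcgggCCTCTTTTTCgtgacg
Rpl38: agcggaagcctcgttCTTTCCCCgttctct
Rpl14: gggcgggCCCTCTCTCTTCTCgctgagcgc
Rpl24: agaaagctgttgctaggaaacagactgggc
Rpl22: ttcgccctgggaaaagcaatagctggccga
Rpl22l1: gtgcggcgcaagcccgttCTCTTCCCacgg
Rps27l: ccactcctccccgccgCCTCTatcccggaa

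A promoter sequence matched 68 of the 88 genes, 57 of them core genes. Of the 68, 10 had several annotated starts, and only the first listed start of a gene was used. A C followed by at least 4 pyrimidines, whether at the head of a run or inside one, lay within 2 bases of the annotated start in 19 of 57 core genes (33.3%), against 8.74% of 17492 protein-coding genes. Within 10 bases such a C was found in 31 of 57 (54.4%), against 31.2%. The letters CTTTC, or the same with 1 or 2 more T, the centre of many TOP tracts, lay within 50 bases of the start on the gene's strand in 35 of 57 core genes (61.4%), against 14.6% of all. Annotated starts can lie away from the starts that these macrophages use, so a missing run says only that the letters are not in the window. The letters CCGGAAG, which contain the core that ETS factors such as Gabpa bind, were present on either strand between 250 bases before and 50 after the start in 23 of 57 core genes (40.4%), against 11.9% of all. GGAAGTG, whose first letters overlap with the end of CCGGAAG, was in 14 of 57 (24.6%), against 12.2%. TATAAA was in 5 of 57 (8.77%), against 13.3%, and CACGTG, the letters of the E-box that Myc binds, in 5 of 57 (8.77%), against 7.90%. The 100 bases before the start of Rpl38 (chr11:114668480-114668579, plus strand) and of Rps6 (chr4:86857368-86857467, minus strand) are printed with CCGGAAG in capitals.
Rpl38: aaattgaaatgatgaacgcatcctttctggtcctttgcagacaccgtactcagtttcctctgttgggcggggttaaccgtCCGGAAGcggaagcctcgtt
Rps6: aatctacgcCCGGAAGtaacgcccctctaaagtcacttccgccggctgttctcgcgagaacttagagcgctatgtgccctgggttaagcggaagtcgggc

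The family was among the most abundant messages of these macrophages. The 88 genes together took 2.63% of all expected counts in KO LPS cells (interval 2.62 to 2.64), 3.12% in KO NT cells (3.11 to 3.14), 2.44% in WT LPS cells (2.43 to 2.46) and 2.69% in WT NT cells (2.68 to 2.71). The share was largest in KO NT cells and smallest in WT LPS cells, and it was lower with LPS than without in both genotypes. Because most of the genes are short, their share of summed FPKM was larger: 8.04% in KO LPS, 9.47% in KO NT, 7.25% in WT LPS and 8.23% in WT NT cells. The median core gene had 478 FPKM in KO LPS, 578 FPKM in KO NT, 443 FPKM in WT LPS and 489 FPKM in WT NT cells. Among the 100 genes of highest FPKM, 12 were ribosomal protein genes in KO LPS cells, 29 in KO NT cells, 12 in WT LPS cells and 22 in WT NT cells.

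**Figure D1:**
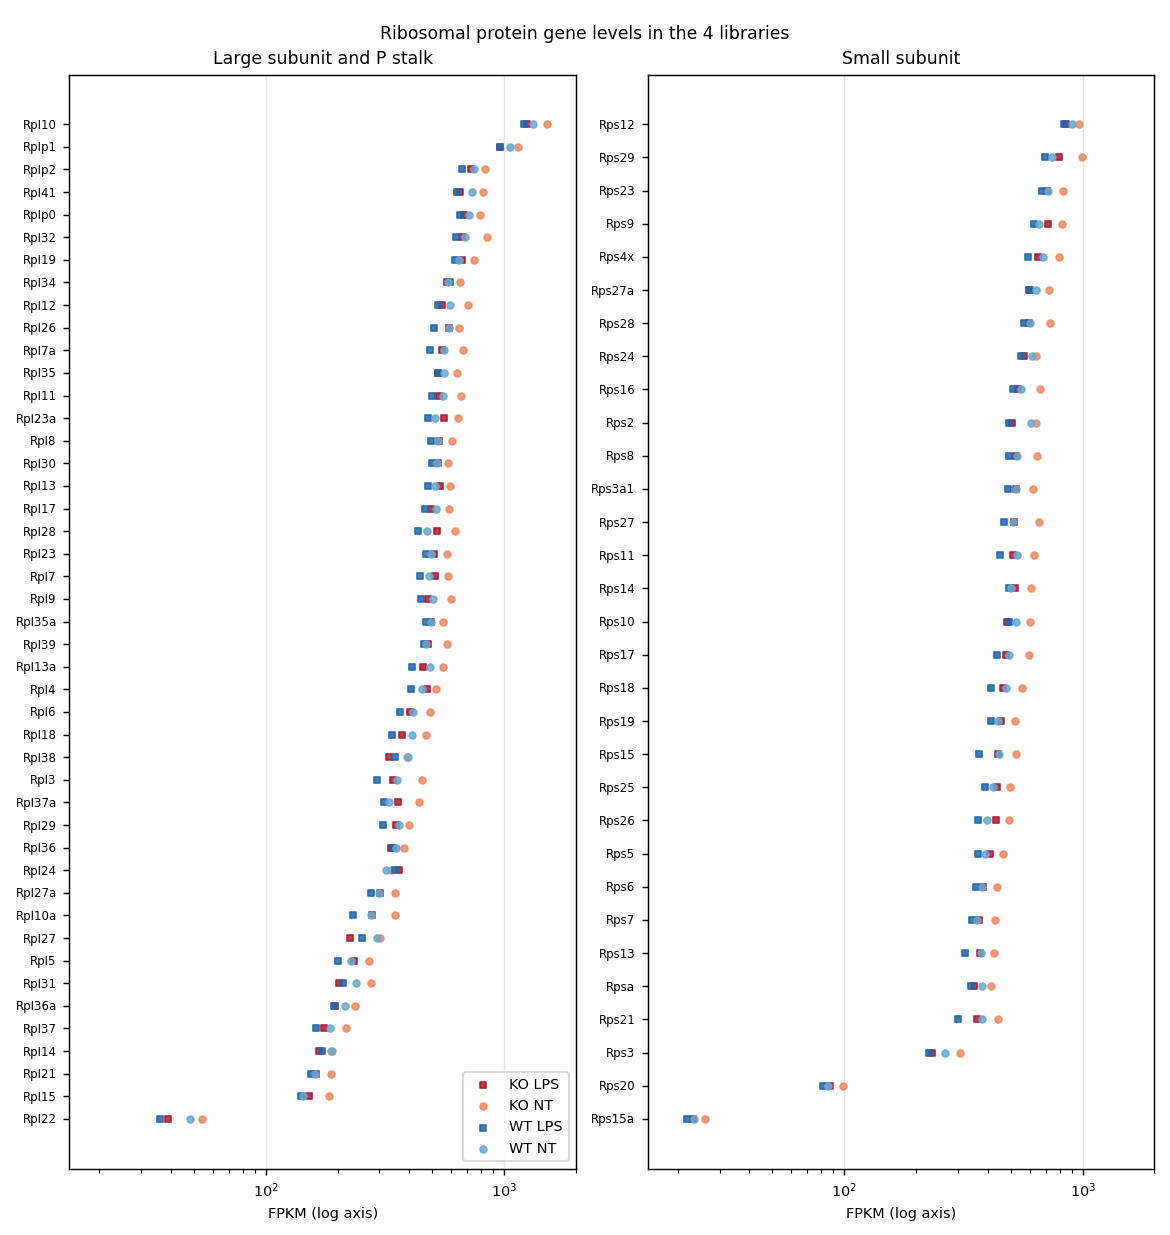
FPKM (log axis) of 76 of the 77 core ribosomal protein genes in the 4 libraries, large subunit and P stalk on the left and small subunit on the right, sorted by mean level. KO NT is the highest point of nearly every row, Rpl10 tops the large subunit with 1508 FPKM in KO NT cells, and Rpl22, Rps20 and Rps15a lie well below the rest.

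Levels differed among the genes far more than between the libraries. Rpl10, which completes the large subunit before the subunits join, was the most abundant, with 1247 FPKM in KO LPS cells, 1508 FPKM in KO NT cells, 1213 FPKM in WT LPS cells and 1322 FPKM in WT NT cells. Rplp1 and Rplp2 belong to the flexible P stalk that calls in the translation factors. Rplp1 had 958 FPKM in KO LPS cells, 1141 FPKM in KO NT cells, 962 FPKM in WT LPS cells and 1059.6 FPKM in WT NT cells. Rplp2 had 729 FPKM in KO LPS cells, 830.1 FPKM in KO NT cells, 668 FPKM in WT LPS cells and 745 FPKM in WT NT cells. Rplp0, the base on which the stalk is built, had 678 FPKM in KO LPS cells, 791 FPKM in KO NT cells, 652 FPKM in WT LPS cells and 713 FPKM in WT NT cells. The stalk genes kept the order of the 4 libraries seen for the family, KO NT first and WT NT next, with the LPS libraries lowest. In the small subunit Rps12 had the highest mean over the libraries, with 854 FPKM in KO LPS cells, 968 FPKM in KO NT cells, 832 FPKM in WT LPS cells and 902 FPKM in WT NT cells, and Rps29 was next by mean and above it in KO NT cells. Rpsa, also known as the laminin receptor, had 349 FPKM in KO LPS cells, 413 FPKM in KO NT cells, 340.5 FPKM in WT LPS cells and 379 FPKM in WT NT cells.

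The lowest core genes were Rps15a, Rpl22 and Rps20. Rps15a had 23.3 FPKM in KO LPS cells, 26.2 FPKM in KO NT cells, 21.8 FPKM in WT LPS cells and 23.5 FPKM in WT NT cells. Its deposited length of 5158 bases was the longest of any core gene, where the median was 710 bases, so its FPKM was low with 636, 773, 641 and 694 expected counts in KO LPS, KO NT, WT LPS and WT NT cells. Rps20 likewise had 87.4 FPKM in KO LPS cells, 99.1 FPKM in KO NT cells, 81.4 FPKM in WT LPS cells and 85.8 FPKM in WT NT cells, with a deposited length of 3446 bases. Levels of these genes per length rest on the transcript models that the authors used, whereas for Rps15a and Rps20 the deposited length was the same in every library, so their ratios between libraries do not depend on it.

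Ribosomal protein messages took a larger share of the reads in the untreated KO library than in the untreated WT library, by a small margin that differed among the genes. Of the 77 core genes, 75 were higher in KO NT than in WT NT cells, and the median fold was 0.22 on the log2 scale, a ratio of 1.16 (range of log2 folds −0.02 to 0.42). Over all 10990 genes that passed the filter of 1 FPKM in 1 of the libraries compared, 53.3% were above 0 and the median was 0.02. Of the 83 family members that passed, 78 were above 0 and 71 had an interval wholly above 1, against 14.1% of all genes and 25.5% of genes of at least 500 counts in both libraries. No member had an interval below 1, which 11.5% of all genes had, and no member reached 1.5-fold in either direction, which 3.89% of all genes did upward and 3.06% downward. Among genes of at least 500 counts those shares were 0.596% and 1.15%, so a count of 0 is near that background. Rpl22l1, described with the paralogs, came closest. The small subunit had a median of 0.23 and the large subunit 0.21. The 3 P stalk genes lay lower, with a median of 0.15. Scaling the libraries by their median ratio left the picture as it was, with a median of 0.20 over the members and 78 above 0, where 50.2% of all genes were.

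Rps29, a zinc-finger protein of the small subunit head, had the highest core fold, with 797 FPKM in KO LPS cells, 997 FPKM in KO NT cells, 696 FPKM in WT LPS cells and 743 FPKM in WT NT cells. KO NT cells had 1.34 times the WT NT level (interval 1.26 to 1.43). Rpl37a, a zinc-binding protein of the large subunit, had 359 FPKM in KO LPS cells, 439.8 FPKM in KO NT cells, 312 FPKM in WT LPS cells and 329 FPKM in WT NT cells, a ratio of 1.34 without LPS (interval 1.24 to 1.45). For both genes the KO NT library stood clear of the other 3. Rpl28, whose start is printed above, had 525 FPKM in KO LPS cells, 625 FPKM in KO NT cells, 434 FPKM in WT LPS cells and 473 FPKM in WT NT cells, and its ratio was 1.32 without LPS (interval 1.23 to 1.42) and 1.21 with LPS (interval 1.12 to 1.31). Rpl15, of the large subunit, had 152 FPKM in KO LPS cells, 185 FPKM in KO NT cells, 141 FPKM in WT LPS cells and 143 FPKM in WT NT cells, with a ratio of 1.29 (interval 1.21 to 1.39) without LPS. These 4 genes had intervals that lay above the core median ratio of 1.16, as did 7 other core genes and the paralog Rpl22l1.

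At the other end, Rpl38, a small large-subunit protein known in the mouse for its part in the translation of Hox messages, had 327 FPKM in KO LPS cells, 389.7 FPKM in KO NT cells, 349 FPKM in WT LPS cells and 396 FPKM in WT NT cells, a ratio of 0.985 (interval 0.890 to 1.09) for KO NT over WT NT. Rpl14 had 168 FPKM in KO LPS cells, 189 FPKM in KO NT cells, 173 FPKM in WT LPS cells and 189.8 FPKM in WT NT cells, with a ratio of 0.994 (interval 0.908 to 1.09). Rpl27 had 225 FPKM in KO LPS cells, 301 FPKM in KO NT cells, 252 FPKM in WT LPS cells and 292 FPKM in WT NT cells, with a ratio of 1.03 (interval 0.95 to 1.12). The intervals of these 3 genes lay below 1.16, and for each the KO NT and WT NT values differed by no more than counting error. Rpsa, Rplp0 and Rplp1 also had intervals below 1.16, but above 1, with ratios of 1.09 for Rpsa, 1.11 for Rplp0 and 1.08 for Rplp1. Rpl14 shared reads with its retrocopy Rpl14-ps1, and with the counts of both added its ratio as a share of all counts was 1.08 (interval 1.0 to 1.16).

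**Figure D2:**
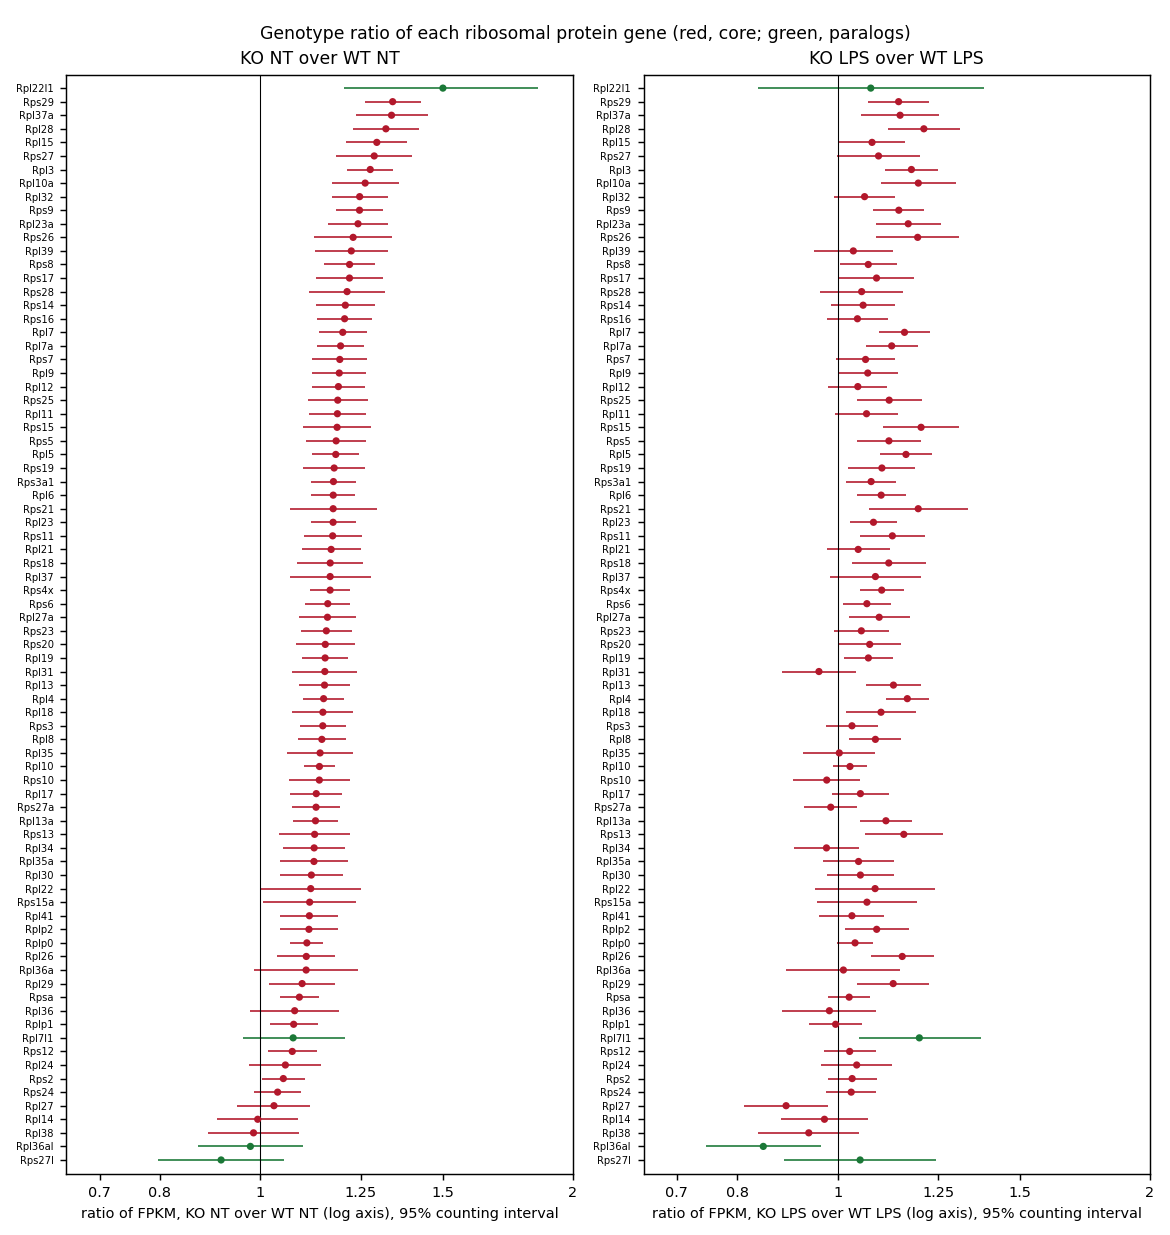
Ratio of FPKM (log axis), KO NT over WT NT on the left and KO LPS over WT LPS on the right, for 80 ribosomal protein genes listed in all 4 libraries and at 1 FPKM or more, with 95% counting intervals, sorted by the ratio without LPS (core genes red, paralogs green). Without LPS the points run from 0.916 (Rps27l) to 1.5 (Rpl22l1) and all but a few sit right of 1. With LPS they lie closer to 1 and several sit left of it, Rpl36al and Rpl27 the farthest.

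With LPS in both genotypes the margin was narrower. Of the core genes, 68 were above 0 and 9 below for KO LPS against WT LPS, and the median fold was 0.10, a ratio of 1.07 (range of log2 folds −0.16 to 0.28). This was close to the median of all 10375 genes, 0.08, of which 62.1% were above 0. Of 82 members that passed the filter, 71 were above 0, 41 had an interval above 1 (all genes, 21.1%, and genes of at least 500 counts, 39.8%) and 2 had one below 1 (all genes, 9.41%). No member was at least 1.5-fold higher (all genes, 5.69%, and genes of at least 500 counts, 1.79%), and the 1 at least 1.5-fold lower (all genes, 3.35%, and genes of at least 500 counts, 2.48%) was Rpl37rt, which was not listed in KO LPS cells. After median-ratio scaling the median over the members was 0.03, and 55 were above 0, against 52.8% of all genes. The median of the members with LPS was thus close to the background, while more of them lay above 0 than of all genes.

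Rpl28, Rps15, Rpl10a and Rps21 were among the core genes with the highest ratios of KO LPS over WT LPS, from 1.20 to 1.21. Rpl10a, which forms the mobile stalk at the exit of used transfer RNA, had 279 FPKM in KO LPS cells, 349.7 FPKM in KO NT cells, 233 FPKM in WT LPS cells and 277 FPKM in WT NT cells. Rps15, in the head of the small subunit, had 444 FPKM in KO LPS cells, 527 FPKM in KO NT cells, 369 FPKM in WT LPS cells and 445 FPKM in WT NT cells. In both genes the WT LPS library was the lowest of the 4. Rpl27 was lower in KO LPS than in WT LPS cells, a ratio of 0.892 (interval 0.813 to 0.978), and the paralog Rpl36al had a ratio of 0.848 (interval 0.746 to 0.963). Across the 77 core genes the genotype fold without LPS and that with LPS, which use 4 different libraries, were related with a Pearson r of 0.63 and a Spearman rho of 0.59, and 70 genes had the same sign. The values are a description over genes that share their libraries and normalisation.

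Markers of other states also differed between the KO and WT libraries. Of 22 cell cycle genes that passed, 20 were higher in KO NT than in WT NT cells, with a median fold of 0.56 (all genes, 53.3% above 0), and of 20 that passed with LPS, 18 were higher in KO LPS than in WT LPS cells, with a median of 0.39 (all genes, 62.1%). Their summed level was 649 and 763 FPKM in KO LPS and KO NT cells, against 677 and 678 FPKM in WT LPS and WT NT cells. Pcna, the replication clamp, made up most of each sum, with 402 FPKM in KO LPS cells, 467 FPKM in KO NT cells, 494 FPKM in WT LPS cells and 491 FPKM in WT NT cells. Of 13 neutrophil and precursor markers that passed, 10 were higher in KO NT than in WT NT cells, with a median of 0.56, and of 14 with LPS, 12 were higher in KO LPS than in WT LPS cells, with a median of 0.33. They summed to 613 and 686 FPKM in KO LPS and KO NT cells, against 443 and 408 FPKM in WT LPS and WT NT cells. Their part in the family's genotype fold was not tested. In bulk RNA, a change in the number of cells of a type and a change in RNA per cell cannot be told apart.

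LPS gave lower values for almost every ribosomal protein gene on the FPKM scale, but most of the transcriptome was lower too. In KO cells 76 of 77 core genes were lower in KO LPS than in KO NT, with a median fold of −0.25, a ratio of 0.840 (SD of log2 folds over genes 0.09). Of 82 members that passed, 81 were below 0 and 80 had an interval below 1, against 76.6% and 56.9% of all 11069 genes and, for the interval, 54.2% of genes of at least 500 counts in both libraries. In WT cells 75 of 77 core genes were lower in WT LPS than in WT NT, with a median of −0.13, a ratio of 0.916. Of 83 members that passed, 81 were below 0 and 51 had an interval below 1, against 78.3% and 60% of all 10972 genes and, for the interval, 57.8% of genes of at least 500 counts. The median of all genes was −0.42 in KO and −0.46 in WT cells, and that of genes of at least 500 counts was −0.17 in KO and −0.18 in WT cells. A direction for the family therefore depends on the scale: after median-ratio scaling, which puts the all-gene median at −0.04 in both genotypes, the median over the members was 0.17 in KO and 0.35 in WT cells, with 78 members above 0 in KO and 79 in WT, against 47% of all genes in each and against 78.3% in KO and 79.9% in WT cells of genes of at least 500 counts. Relative to the median gene the ribosomal protein messages were thus higher with LPS, and as a share of all reads they were lower. Genes of at least 500 counts had medians of 0.25 in KO and 0.29 in WT cells after that scaling. Against those genes the median of the members was lower in KO and higher in WT cells.

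**Figure D3:**
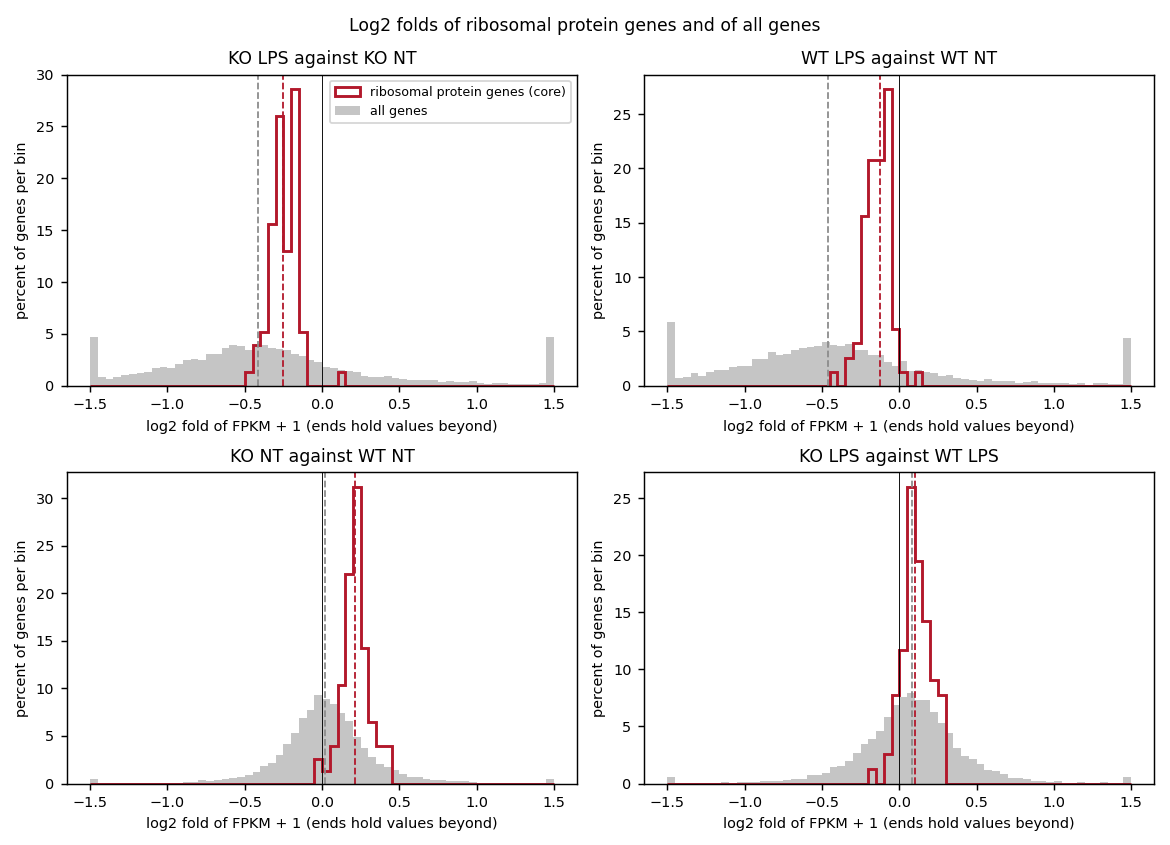
Distribution of log2 folds of FPKM + 1 in the 4 comparisons, as percent of genes per bin, for the 77 core ribosomal protein genes (red outline) and for all genes that passed the filter (grey); dashed lines mark medians. The red distributions are much narrower than the grey ones, at a median of −0.25 and −0.13 for LPS in KO and WT cells, 0.22 for KO NT against WT NT and 0.10 for KO LPS against WT LPS.

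The spread over core genes was narrow in all comparisons. For LPS the SD of their log2 folds was 0.09 in KO and 0.08 in WT cells, against 0.67 and 0.66 over genes of at least 500 counts. It was 0.09 against 0.21 for KO NT against WT NT, and 0.09 against 0.28 for KO LPS against WT LPS. Over core genes the LPS folds ran from −0.46 to 0.11 in KO and from −0.42 to 0.13 in WT cells. The interquartile range of all genes ran from −0.78 to −0.04 in KO and from −0.83 to −0.09 in WT cells. Few members changed by 1.5-fold. In KO cells 2 members were at least 1.5-fold lower with LPS (all genes, 37.3%, and genes of at least 500 counts, 11.1%), Rpl22l1 and Rpl37rt. In WT cells 2 were (all genes, 40.6%, and genes of at least 500 counts, 13.2%), Rpl37rt and Rps23rg1, and both are retrocopies of few counts. No member was 1.5-fold higher in either genotype, which 10.3% of all genes were in KO and 9.52% in WT cells, and of genes of at least 500 counts 12.1% in KO and 10.8% in WT cells.

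On the FPKM scale Rpl24 was the only core gene higher with LPS in both genotypes, whereas after median-ratio scaling 75 core genes were above 0 in KO and 77 in WT cells. This large subunit protein, mutated in the Belly spot and tail mouse, had 364 FPKM in KO LPS cells, 336 FPKM in KO NT cells, 349 FPKM in WT LPS cells and 318 FPKM in WT NT cells. The ratio was 1.08 in KO (interval 1.0 to 1.17) and 1.10 in WT cells (interval 1.01 to 1.19), and both LPS libraries lay above both NT libraries. Rpl34 had 579 FPKM in KO LPS cells, 653 FPKM in KO NT cells, 593 FPKM in WT LPS cells and 579.6 FPKM in WT NT cells, and it was the other gene above 0 in WT cells, with a ratio of 1.02 (interval 0.953 to 1.10), while its ratio in KO cells was 0.886 (interval 0.825 to 0.951). Rpl22 had the lowest core fold in both genotypes. Its protein binds RNA outside the ribosome as well and is needed for lymphocyte development in the mouse. It had 39.0 FPKM in KO LPS cells, 54.0 FPKM in KO NT cells, 35.8 FPKM in WT LPS cells and 48.3 FPKM in WT NT cells, with a ratio of 0.721 in KO (interval 0.638 to 0.813) and 0.742 in WT cells (interval 0.655 to 0.840), and the NT libraries lay above the LPS libraries.

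Rpl31 and Rpl27 were low in KO cells, with LPS ratios of 0.736 for Rpl31 (interval 0.681 to 0.795) and 0.748 for Rpl27 (interval 0.684 to 0.817). Rpl31 had 203 FPKM in KO LPS cells, 275 FPKM in KO NT cells, 211 FPKM in WT LPS cells and 239 FPKM in WT NT cells. It shared reads with its retrocopy Rpl31-ps12: the counts of the pair add to whole numbers in all 4 libraries, 1491, 2033, 1583 and 1816 in KO LPS, KO NT, WT LPS and WT NT cells, although neither gene has whole counts. With both added the ratio for KO LPS over KO NT was 0.794 as a share of all counts (interval 0.742 to 0.849). In WT cells Rps21 and Rps2 had the lowest core folds after Rpl22. Rps21 had 360 FPKM in KO LPS cells, 443 FPKM in KO NT cells, 301 FPKM in WT LPS cells and 377 FPKM in WT NT cells, a ratio of 0.798 in WT cells (interval 0.717 to 0.887) and 0.812 in KO cells (interval 0.734 to 0.897). Rps2, at the messenger entry of the small subunit, had 506 FPKM in KO LPS cells, 639 FPKM in KO NT cells, 490.1 FPKM in WT LPS cells and 607 FPKM in WT NT cells, a ratio of 0.807 in WT cells (interval 0.767 to 0.849) and 0.792 in KO cells (interval 0.753 to 0.833). At the high end after Rpl24, Rpl13, Rpl4, Rpl26 and Rpl30 had ratios between 0.903 and 0.914 in KO cells. In WT cells Rpl15, Rpl39 and Rps14 had ratios between 0.977 and 0.986, with intervals that held 1.

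**Figure D4:**
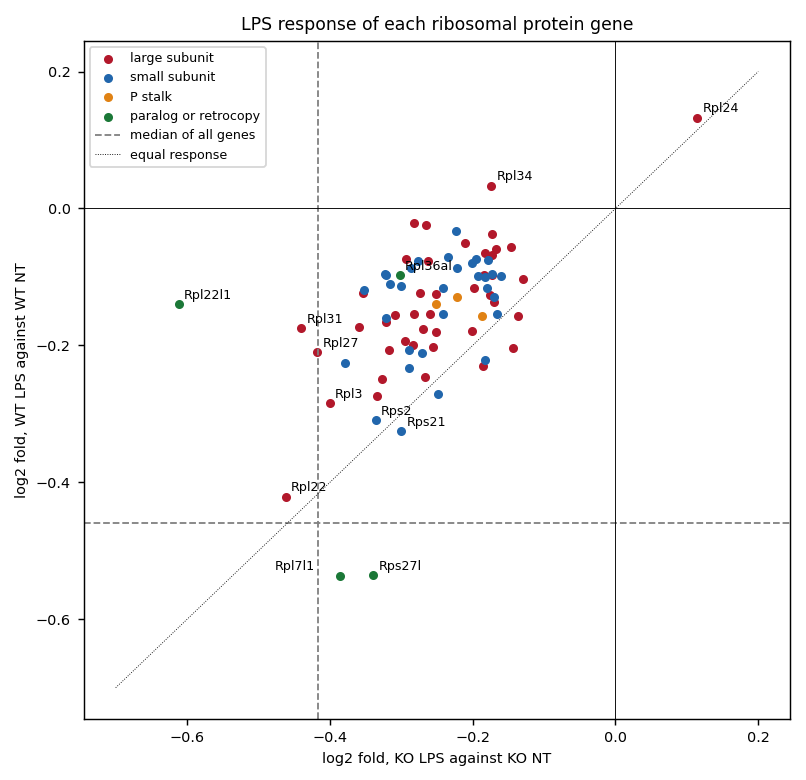
Log2 fold of each ribosomal protein gene listed in all 4 libraries and at 1 FPKM or more in KO cells, KO LPS against KO NT on the horizontal axis and WT LPS against WT NT on the vertical axis, coloured by subunit, with the medians of all genes as dashed lines and equal responses dotted. Most points lie above the dotted line, to the right of the KO median of all genes and above the WT one, with Rpl24 alone above 0 on both axes and Rpl22 lowest among core genes.

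The LPS fold was lower in KO than in WT cells for most of the family. The difference of the log2 folds, KO minus WT, had a median of −0.10 over 83 members, of which 74 were below 0, against a median of 0.05 and 42% below 0 over 11320 genes. For 33 members the difference lay below 0 by more than its 95% counting error, against 3.98% of all genes, and for none did it lie that far above 0, against 8.83%. Many of all genes had fewer counts than the members and so a wider counting error. The share among genes of at least 500 counts was not computed for this difference, so how unusual the 33 members are among such genes is not known. Above 0 were 9 members and 58% of all genes. With median-ratio scaling the median difference was −0.15 over the members and 0.01 over all genes. By construction it equals the genotype fold with LPS minus that without, so it repeats the narrower genotype margin with LPS. KO NT was the library with the highest share of ribosomal protein counts, and with 1 library per group a trait of that library and genotype cannot be told apart. Across the 77 core genes the responses of KO and WT cells, from 4 different libraries, were related with a Pearson r of 0.59 and a Spearman rho of 0.46, and 76 genes had the same sign. Rpl15 (difference -0.26), Rpl39 (-0.24), Rps29 (-0.23) and Rpl31 (-0.27) were among those whose KO response was the lower, and Rpl26 (0.06) was on the other side.

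The paralogs went their own ways. Rpl22l1, a relative of Rpl22 whose message the Rpl22 protein is known to repress in the mouse, had 55.4 FPKM in KO LPS cells, 85.2 FPKM in KO NT cells, 51.4 FPKM in WT LPS cells and 56.8 FPKM in WT NT cells. KO NT stood well above the other 3 libraries, with a ratio of 1.5 to WT NT (interval 1.20 to 1.85), from 216 against 145 expected counts that are not whole, and KO LPS had 0.650 times the KO NT level (interval 0.520 to 0.814). Its coding sequence is 68.2% identical to that of Rpl22 by global alignment, and its FPKM was above that of Rpl22 in every library. Rps27l, in the mouse a target of the tumour suppressor Trp53, had 108 FPKM in KO LPS cells, 137 FPKM in KO NT cells, 103 FPKM in WT LPS cells and 149.9 FPKM in WT NT cells. It was the lowest member of at least 50 counts for KO NT over WT NT, a ratio of 0.916 (interval 0.796 to 1.05), and had an LPS ratio of 0.688 in WT cells (interval 0.590 to 0.801) and 0.789 in KO cells (interval 0.674 to 0.923). Its parent Rps27, 61.0% identical in coding sequence, had 514 FPKM in KO LPS cells, 656 FPKM in KO NT cells, 469 FPKM in WT LPS cells and 509.9 FPKM in WT NT cells, and its ratio of KO NT over WT NT was 1.29 (interval 1.18 to 1.40). The pair thus lay on opposite sides of 1 without LPS.

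Rpl7l1, a relative of Rpl7, had 33.1 FPKM in KO LPS cells, 43.5 FPKM in KO NT cells, 27.6 FPKM in WT LPS cells and 40.5 FPKM in WT NT cells, with LPS ratios of 0.760 in KO (interval 0.673 to 0.859) and 0.682 in WT cells (interval 0.599 to 0.774). Its parent Rpl7 had 514 FPKM in KO LPS cells, 581 FPKM in KO NT cells, 443 FPKM in WT LPS cells and 484 FPKM in WT NT cells, and the coding sequences are 54.0% identical. Rpl36al had 167 FPKM in KO LPS cells, 206 FPKM in KO NT cells, 197 FPKM in WT LPS cells and 210.5 FPKM in WT NT cells, close to its parent Rpl36a with 195 FPKM in KO LPS cells, 238 FPKM in KO NT cells, 193 FPKM in WT LPS cells and 215 FPKM in WT NT cells, and they are 87.7% identical. Rpl36al was the lower of the pair in every library except WT LPS. Rpl10l and Rpl3l, which in the mouse are made in testis and in striated muscle, were not listed in any library, while Rpl10 and Rpl3 were abundant. Rpl39l, also known from testis, was listed at 0.24 FPKM in KO LPS and 0.90 FPKM in WT NT cells only. Rps27rt, whose coding sequence is 100% identical to that of Rps27, and Rpl32l were listed nowhere. Rpl37rt was listed at 15.5 FPKM in KO NT, 7.10 FPKM in WT LPS and 11.5 FPKM in WT NT cells but not in KO LPS cells, and Rps23rg1 at no more than 1.07 FPKM. Both had fractional counts, as did Rpl37, whereas the counts of Rps23 were whole. With which genes Rpl37rt and Rps23rg1 shared reads is not shown, so the values of both and those of Rpl37 are uncertain.

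Fractional counts mark genes that share reads. Of the 84 listed members 64 had whole counts in every library where they were listed, within 0.01, and 20 did not, 16 of these in the core. The core genes with whole counts had a median fold of 0.22 for KO NT against WT NT, and those with fractional counts 0.20. For LPS the medians were −0.25 and −0.19 in KO and −0.12 and −0.16 in WT cells. Of 312 ribosomal protein pseudogenes in the annotation, 6 were listed, among them Rps15a-ps4 with 138 FPKM in KO LPS, 159 FPKM in KO NT, 134 FPKM in WT LPS and 109.7 FPKM in WT NT cells. Per length that level is above that of Rps15a itself, though Rps15a had more expected counts in every library, and with Rps15a-ps4 and Rps15a-ps6 added, Rps15a had a ratio of 1.19 for KO NT over WT NT (interval 1.11 to 1.28), against 1.12 alone.

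Median folds were similar for core genes with and without the features compared here. Core genes with the pyrimidine run within 10 bases of the start (31 genes) had a median fold of 0.21 for KO NT against WT NT, and the 26 without it 0.21. For LPS the medians were −0.26 with and −0.25 without the run in KO cells and −0.13 and −0.15 in WT cells. The split follows the first annotated start, and genes without the run there may still have a TOP tract. The split therefore cannot show whether the tract bears on the folds. The 23 genes with CCGGAAG had medians of 0.22 for genotype without LPS, −0.26 for LPS in KO and −0.15 for LPS in WT cells, and the 34 without it 0.20, −0.25 and −0.13. At least 1 annotated small nucleolar RNA lies within each of 30 core genes, and these genes had a median of 0.22 for KO NT against WT NT, against 0.21 for the other 47. The 77 core genes lie on 19 chromosomes, with 14 on chromosome 7, 7 on chromosome 11 and 4 on the X chromosome. The X-linked genes, Rpl10, Rpl36a, Rpl39 and Rps4x, had medians of 0.21 for genotype without LPS and −0.28 and −0.14 for LPS in KO and WT cells, near those of the family.

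Among related gene lists, other TOP messages and elongation factors had medians for KO NT against WT NT nearer to that of the family than to that of all genes, of which 53.3% were above 0. Fau, made as a fusion to a ubiquitin-like protein, and Rack1 encode ribosomal proteins outside the naming rule. Fau had 653 FPKM in KO LPS cells, 771 FPKM in KO NT cells, 518 FPKM in WT LPS cells and 599.7 FPKM in WT NT cells, and its log2 fold for KO NT against WT NT was 0.36. Rack1 had 487 FPKM in KO LPS cells, 602 FPKM in KO NT cells, 450 FPKM in WT LPS cells and 520.2 FPKM in WT NT cells, with a fold of 0.21. Of 20 other messages known for a TOP tract, 19 were higher in KO NT cells, with a median of 0.20. Intervals lay above 1 for 15, against 14.1% of all genes and 25.5% of genes of at least 500 counts in both libraries. Tpt1, a growth-related protein, had 2219.6 FPKM in KO LPS cells, 2500.2 FPKM in KO NT cells, 2228 FPKM in WT LPS cells and 2176 FPKM in WT NT cells, and Vim, the intermediate filament protein vimentin and the exception, had 1744 FPKM in KO LPS cells, 1306 FPKM in KO NT cells, 1945 FPKM in WT LPS cells and 1728 FPKM in WT NT cells. Of 8 genes in the list of elongation factors 6 were higher, with a median of 0.16. The list also holds Eef2k, the kinase of Eef2, which had the highest fold of the list, 0.52. Eef2, which moves the ribosome along, was also higher, with 552 FPKM in KO LPS cells, 644 FPKM in KO NT cells, 497 FPKM in WT LPS cells and 563 FPKM in WT NT cells. With LPS the medians in KO and WT cells were −0.23 and −0.14 for the TOP messages and −0.24 and −0.17 for the elongation factors.

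Initiation factors had a median of −0.06 for KO NT against WT NT, with 16 of 37 above 0, and ribosome biogenesis factors, which process and assemble the subunits, −0.07 with 29 of 77 above 0. Of 12 genes of RNA polymerase I, which makes ribosomal RNA, 7 were above 0, with a median of 0.03. Of 78 mitochondrial ribosomal protein genes, which serve the separate ribosome of that organelle, 39 were above 0 and 39 below, with a median of 0.00. Chaperones and import factors of ribosomal proteins had a median of −0.06 over 14 genes, and regulators of TOP translation −0.01 over 23. With LPS the mitochondrial ribosomal genes had medians of −0.53 in KO and −0.57 in WT cells, lower than the cytosolic ones. They lay nearer to the medians of all genes, −0.42 in KO and −0.46 in WT cells. Sbds, which frees the large subunit for its first use, had the highest LPS fold of the biogenesis factors in both genotypes, with 112 FPKM in KO LPS cells, 32.3 FPKM in KO NT cells, 137 FPKM in WT LPS cells and 34.5 FPKM in WT NT cells. Myc, a factor known to drive ribosome production, had 12.8 FPKM in KO LPS cells, 7.56 FPKM in KO NT cells, 6.79 FPKM in WT LPS cells and 5.94 FPKM in WT NT cells, and Mdm2, which free ribosomal proteins bind, had 151 FPKM in KO LPS cells, 49.4 FPKM in KO NT cells, 177 FPKM in WT LPS cells and 64.8 FPKM in WT NT cells. Several genes of the lists of TOP messages, elongation and initiation factors are the same, so the lists are not independent of each other.

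**Figure D5:**
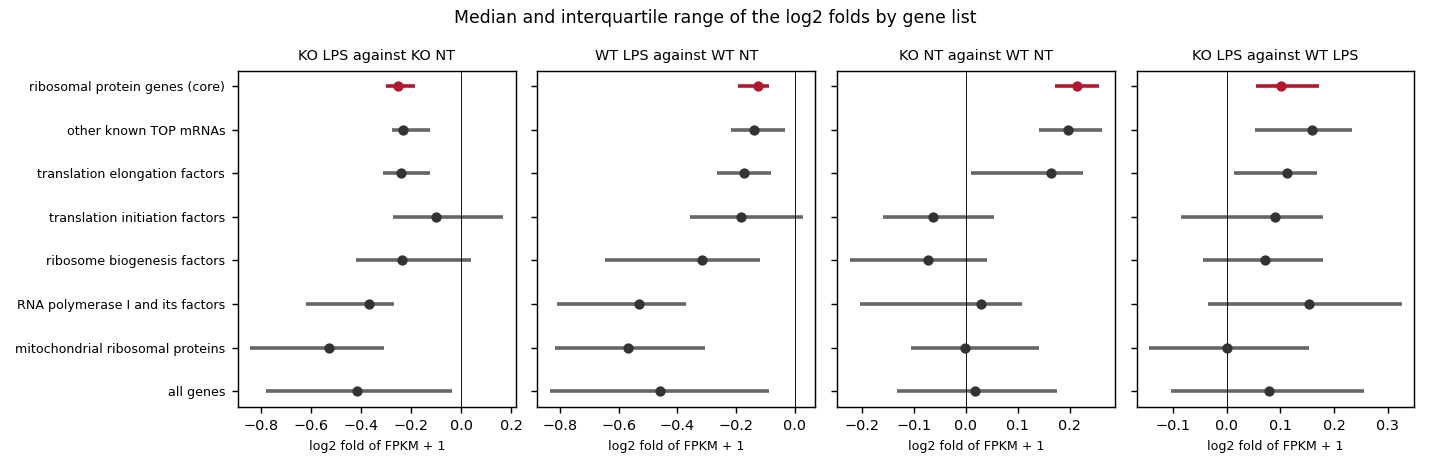
Median (point) and interquartile range (bar) of the log2 folds of FPKM + 1 for the core ribosomal protein genes (red), related gene lists and all genes, in the 4 comparisons. For KO NT against WT NT the core genes (0.22) and other TOP messages (0.20) lie together, apart from initiation (−0.06), biogenesis (−0.07) and mitochondrial ribosomal genes (0.00).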

How the data were processed

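Total RNA of 4 macrophage libraries, KO LPS, KO NT, WT LPS and WT NT, was sequenced on a HiSeq instrument, as the labels' protocols say. Bowtie, RSEM and mm10 are named in the submitters' processing notes; not given in the sources used here are versions, annotation, strand and filters. The deposited tables hold, per the file headers, a gene length, an expected count (RSEM's estimate by the authors, which splits shared reads and need not be whole) and an FPKM computed by the authors. FPKM is relative: where some genes gain many reads, the others read lower. Genes absent from a table were set to 0. Of 15935 NCBI identifiers 15897 matched a symbol in RefSeq's table of GRCm38.p6. Of 15 polymerase I symbols 12 matched, and of 16 macrophage symbols 15.

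Folds used a pseudocount of 1 FPKM and genes of at least 1 FPKM in 1 of the libraries compared. Intervals used expected counts rounded to whole numbers. The median ratio used genes that reached 1 FPKM in every library. Alternatives were pseudocounts of 0.1 and 5, no filter or 5 FPKM, other scalings, CPM, whole-count members and leaving out paralogs; added after seeing the data were retrocopies added to parents, the background of genes of at least 500 counts and the CTTTC search. Coding sequences of GENCODE M21 were aligned in place of proteins, which were not used here, for 8 of 11 paralogs. Rps23rg1 was placed with the retrocopies after its values were seen. The computations were tested on simulated counts (Python 3.11.15, numpy 2.4.6, pandas 2.3.3, scipy 1.17.1, Biopython 1.88).

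Named genes were, per comparison, the 5 highest and 5 lowest members of at least 50 counts, the 5 highest and lowest by mean FPKM, the P stalk, Rpsa, all paralogs with their parents, and the highest, median and lowest gene of a list. Rps6 and Rps9, Rps20 and, in the closing section, Rps10, Rps27a and Rpl36 were named after their values were seen. A few genes named by the rule are not reported here. The members and lists were chosen with earlier results of these data known.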

Additional observations from a re-analysis of the deposited data

Results flagged for a closer look

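Among members listed in all 4 libraries and past the filter for LPS in both genotypes, 9 values had effects of opposite sign in the 2 states or genotypes. Rpl37rt, not listed in KO LPS cells, and Rps23rg1, under the filter in KO cells, were not counted. With 1 library per group these differences were not tested, and in each case at least 1 of the 2 effects had a ratio whose counting interval held 1.

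For Rpl27 the log2 fold of KO against WT was −0.16 with LPS and 0.04 without, a difference of −0.21. For Rpl31 it was −0.06 with LPS and 0.21 without, a difference of −0.27, and Rpl31 shares reads with a retrocopy. Rps10 had −0.03 with LPS and 0.19 without (difference −0.22), and Rps27a, which is fused to ubiquitin, −0.02 and 0.18 (difference −0.20). Rpl36 had −0.03 and 0.11 (difference −0.14), and the stalk gene Rplp1 −0.01 and 0.11 (difference −0.11). The paralog Rps27l was the one with the opposite order, 0.07 with LPS and −0.13 without, a difference of 0.20.

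For Rpl34 both contrasts were of opposite sign: the LPS fold was −0.17 in KO and 0.03 in WT cells, and the genotype fold was −0.04 with LPS and 0.17 without, a difference of −0.21 in each case.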

How the results depend on the processing

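No paired analysis was possible because each group has 1 library. The median fold for KO NT against WT NT, the median for KO LPS against WT LPS and the median difference of the LPS folds kept their sign under every alternative tried, though for KO LPS against WT LPS the median was 0.03 after scaling by the median ratio. Scaling by the median ratio reversed the LPS medians, to 0.17 in KO and 0.35 in WT cells, with 78 members above 0 in KO and 79 in WT. It left 1 member at least 1.5-fold lower with LPS in KO and 0 in WT cells, and put 1 at least 1.5-fold higher in WT cells. That scaling raises all LPS folds of a genotype by nearly the same amount by construction.

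The other changes were in counts of a few members. For LPS in KO cells, 3 members were above 0 with no filter and 2 on CPM, and the number at least 1.5-fold lower was 1 with a pseudocount of 5 or with retrocopies added to their parents, and 0 among members with whole counts or without paralogs. For LPS in WT cells 1 member was above 0 with equal FPKM sums, and the number at least 1.5-fold lower was 1 with a filter of 5 FPKM and 0 with a pseudocount of 5, with retrocopies added, among members with whole counts or without paralogs. With no filter 1 member was at least 1.5-fold lower for KO NT against WT NT. For KO LPS against WT LPS, 1 member was at least 1.5-fold higher on CPM, and the 1 that was lower, Rpl37rt, was absent among members with whole counts, without paralogs and with retrocopies added (0 each).

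The main limit is the design: 1 library per group, with intervals that cover counting error only, so a difference of this size between 2 cultures of 1 genotype cannot be told apart from genotype or LPS. FPKM is relative, so no value bears on the amount of ribosomal protein message per cell. Levels of Rps15a, Rps20, Rpl14, Rpl31, Rpl37 and the retrocopies depend on transcript models and on how shared reads were split.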

Other observations

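In the chaperones and regulators around the family some single genes differed more than any core ribosomal protein gene. Eif4ebp2, a repressor of initiation that mTOR switches off, had 13.1 FPKM in KO LPS cells, against 36.6 FPKM in KO NT cells, and 9.27 FPKM in WT LPS cells, against 33.0 FPKM in WT NT cells. Ltv1, which escorts small subunit proteins during assembly, had 24.5 FPKM in KO LPS cells, against 14.9 FPKM in KO NT cells, and 29.6 FPKM in WT LPS cells, against 18.1 FPKM in WT NT cells. Eif1a, an initiation factor, had 100.2 FPKM in KO LPS cells, against 42.8 FPKM in KO NT cells, and 91.7 FPKM in WT LPS cells, against 45.6 FPKM in WT NT cells. Eif4b, an initiation factor with a TOP tract, had 57.5 FPKM in KO LPS cells, against 89.0 FPKM in KO NT cells, and 43.7 FPKM in WT LPS cells, against 76.1 FPKM in WT NT cells. In Ltv1 and Eif1a both LPS libraries were above both NT libraries, and in Eif4ebp2 and Eif4b below them.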
